A study of Mus musculus with 65 samples.

Results

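The sites described here are places on the autosomes of Mei4-deficient spermatocytes where the chromosome axis protein HORMAD1 had a peak and where the wild type had none, away from CTCF. They are the peaks of the Mei4KO HORMAD1 list on chromosomes 1 to 19 that shared no base with a peak of wild-type HORMAD1, wild-type IHO1, wild-type CTCF, SYCP3 of Iho1KO or wild-type DMC1. The rule kept 1310 of 5193 autosomal peaks (25.2%), and they are called the new non-CTCF sites below. They were thus selected on the presence of a HORMAD1 peak in Mei4KO and on its absence, by position, from the other 5 lists. A further 82 peaks of the list lay off these chromosomes. All 24 peak lists of the series used here held 97260 peaks or hotspots.

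The series mapped recombination and axis proteins by chromatin immunoprecipitation and sequencing (ChIP-seq) in whole testis. Per the labels, males were fed the retinoic acid synthesis blocker WIN 18,466 from 1.5 days after birth for 7 to 10 days and were then given 1 injection of retinoic acid. Testes were taken 8 days after that injection, when 80 to 95% of the cells were in leptotene or zygotene, and were fixed in 4% formaldehyde for 15 minutes. The groups used were wild-type C57BL/6JCrl mice and mice with the alleles B6;129P2-Prdm9tm1Ymat/J (Prdm9KO), Spo11tm1Mjn (Spo11KO), Mei4tm1Bdm (Mei4KO), Iho1tm1.2Atot (Iho1KO) or Hormad1tm1.2Atot (Hormad1KO), all treated in the same way and all given C57BL/6JCrl under the label for cell line. Each list came from a group of 2 samples, except SYCP3 of Iho1KO, Prdm9KO and Spo11KO with 1 sample each. There was 1 list per protein and genotype, so no difference between genotypes has a replicate check, and a whole-testis library does not separate spermatocytes from the other cells of the tissue.

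HORMAD1 is a HORMA-domain protein that coats the axes of meiotic chromosomes and recruits IHO1, which in turn assembles with MEI4 into the complexes that SPO11 needs to break DNA. SYCP3 is the structural protein of the axial element. CTCF is the zinc finger protein that halts cohesin as it extrudes chromatin loops, and cohesin is the scaffold on which the axis is built. DMC1 coats the broken ends and so marks hotspots, whose places are set by PRDM9. Peak lists show where a protein passed a caller's threshold, not how much protein was there.

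The comparison set was the 2566 new CTCF peaks (49.4% of the autosomal list): Mei4KO HORMAD1 peaks that met the same rule except that they shared a base with a wild-type CTCF peak. The other 1317 peaks (25.4%) met a wild-type HORMAD1, IHO1 or DMC1 interval or an Iho1KO SYCP3 peak. Of the autosomal peaks, 3331 (64.1%) shared a base with CTCF, 835 (16.1%) with SYCP3 of Iho1KO, 539 (10.4%) with wild-type HORMAD1, 396 (7.63%) with wild-type IHO1 and 273 (5.26%) with a wild-type hotspot. These shares chose the sites and are given as a description only. Shares below carry Wilson 95% intervals and differences of shares carry Newcombe 95% intervals, and a difference is called where its interval excludes 0. The intervals treat peaks as independent and cover counting error only, and the depth behind each list is unknown.

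Some of these sites lay over promoters, and 4 such promoters are printed to show the kind of sequence under them. Those of Madcam1, which encodes an adhesion molecule of gut endothelium, and of Pfn3, a testis profilin, lay under the members closest to a CTCF peak. Those of Cdh15 (M-cadherin) and P4htm (a transmembrane prolyl hydroxylase) lay under members among the widest. Sequences are RefSeq promoters of GRCm38.p6, from 250 bases before to 50 after the start, and capitals mark a match, on either strand, to AGGTGGC or AGGGGGC, 2 short forms of the core of the CTCF motif.
Madcam1 (chr10:79664309-79664608, plus strand): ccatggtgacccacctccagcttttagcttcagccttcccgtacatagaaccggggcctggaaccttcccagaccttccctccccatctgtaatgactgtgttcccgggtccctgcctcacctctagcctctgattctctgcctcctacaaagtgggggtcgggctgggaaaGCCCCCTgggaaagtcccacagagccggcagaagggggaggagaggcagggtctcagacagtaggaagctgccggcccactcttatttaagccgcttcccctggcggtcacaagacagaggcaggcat
Pfn3 (chr13:55415183-55415482, minus strand): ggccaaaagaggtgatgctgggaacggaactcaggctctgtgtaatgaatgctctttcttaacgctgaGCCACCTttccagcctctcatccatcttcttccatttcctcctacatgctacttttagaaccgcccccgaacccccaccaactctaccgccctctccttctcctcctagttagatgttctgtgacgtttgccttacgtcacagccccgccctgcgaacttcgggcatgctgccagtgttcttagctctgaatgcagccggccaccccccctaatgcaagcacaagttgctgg
Cdh15 (chr8:122848124-122848423, plus strand): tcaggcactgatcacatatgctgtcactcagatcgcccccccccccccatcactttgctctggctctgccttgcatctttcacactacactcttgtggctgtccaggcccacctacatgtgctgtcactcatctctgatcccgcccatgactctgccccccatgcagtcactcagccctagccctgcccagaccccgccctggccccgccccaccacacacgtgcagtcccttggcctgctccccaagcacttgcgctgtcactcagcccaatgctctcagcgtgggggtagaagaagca
P4htm (chr9:108597563-108597862, minus strand): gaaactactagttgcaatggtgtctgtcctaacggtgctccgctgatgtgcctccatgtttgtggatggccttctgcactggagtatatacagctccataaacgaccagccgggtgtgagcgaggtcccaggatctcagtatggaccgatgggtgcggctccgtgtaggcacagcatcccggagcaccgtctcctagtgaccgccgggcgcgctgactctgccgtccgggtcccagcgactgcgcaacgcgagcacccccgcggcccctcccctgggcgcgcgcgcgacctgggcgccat

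Madcam1 held 1 match to AGGGGGC and Pfn3 held 1 match to AGGTGGC, while the Cdh15 and P4htm windows held neither. The P4htm window held 28 CpG dinucleotides and the Cdh15 window 7. Over all members, 214 promoters of 191 genes lay wholly under a site, and 47 of them (22.0%, 16.9 to 28.0) held either motif. The share was 53 of 244 (21.7%) for promoters under new CTCF peaks and 5050 of 31396 (16.1%) for all autosomal promoters of the table. AGGTGGC alone was in 7.01% of the members' promoters, 9.02% of those under new CTCF peaks and 6.18% of all, and AGGGGGC in 15.9%, 14.3% and 10.7%. The motifs differ in 1 base, so in 1 orientation they cannot match the same stretch, though matches on opposite strands can share end bases. A match is a description of letters, not a binding site. Promoters under the members had a median of 12 CpG and 56.5% GC, against 7 CpG and 53% GC over all promoters. Those under new CTCF peaks were also above all promoters, with 10 CpG and 54.3% GC.

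The sites lay at the ends of protein-coding genes more often than new CTCF peaks did. Within 1 kb of either end of a protein-coding gene lay 429 of the 1310 sites, 32.7% (30.3 to 35.3), against a background of 24.7% of all autosomal Mei4KO HORMAD1 peaks. Of the new CTCF peaks 14.1% (12.8 to 15.5) did so, a difference of 18.6 percentage points (15.8 to 21.5). A protein-coding gene was touched by 672 sites, 51.3% against a background of 47%, and by 42.8% of new CTCF peaks, a difference of 8.55 points (5.23 to 11.8). Counting every annotated gene, 830 sites (63.4%; background 60.3%) shared a base with one. The gene table used gives no exons, so exonic and intronic positions are not told apart here.

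Over whole peaks more sites reached a 3' end than a 5' end, and in 1 kb windows placed on the peak centres the order was the opposite. Strand was known for 16457 of 20154 protein-coding genes on 18 autosomes, which hold 1267 of the sites; chromosome 18 was not used for this split. Within 1 kb of a 3' end lay 222 sites, 17.5% (15.5 to 19.7), against a background of 13%. The new CTCF peaks gave 7.11% (6.16 to 8.19), a difference of 10.4 points (8.15 to 12.8). At 5' ends there were 161 sites, 12.7% (10.99 to 14.7), against a background of 10.9% and 5.74% of new CTCF peaks, a difference of 6.97 points (4.99 to 9.10). With the centre window, 95 sites (7.498%, 6.17 to 9.08) lay at 3' ends and 123 (9.71%, 8.20 to 11.5) at 5' ends. The differences from new CTCF peaks were then 4.35 points (2.82 to 6.05) at 3' ends, 5.06 (3.30 to 6.98) at 5' ends and 10.9 (8.46 to 13.4) at either end of any protein-coding gene, all still called. Where genes on both strands end close together, 98 sites (7.73%; background 5.31%) lay within 5 kb of 3' ends of both strands, against 2.42% of new CTCF peaks, a difference of 5.31 points (3.80 to 7.00). Wild-type HORMAD1 peaks outside CTCF, hotspots and Iho1KO SYCP3 numbered 139, and unlike the rule this set kept peaks at wild-type IHO1. Of these, 27.3% lay at gene ends, so that the difference from the members, 5.41 points, had an interval of -2.91 to 12.6. For 3' ends this wild-type set gave 18.5% and a difference of -0.997 points (-8.65 to 5.06), and for 3' ends of both strands it gave 11.1% and a difference of -3.38 points (-9.93 to 1.18). The surplus at gene ends was therefore called against new CTCF peaks and not against the small wild-type set. The other 1317 Mei4KO HORMAD1 peaks had higher shares than the sites over whole peaks, with 37.4% (34.9 to 40.1) at either gene end. They gave 19.8% at 3' ends, 19.3% at 5' ends and 8.51% at 3' ends of both strands.

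Around 3' ends, peak centres lay more often downstream of the end than upstream of it. Relative to the nearest 3' end, 327 centres (25.8%, 23.5 to 28.3) fell 0 to 10 kb downstream and 223 (17.6%, 15.6 to 19.8) fell 0 to 10 kb upstream, that is on the gene's side. The fullest 2 kb bin lay 2 to 4 kb downstream and held 99 sites (7.81%), against 68 new CTCF peaks (2.75%). The wild-type HORMAD1 set just described also had its fullest bin there, 15 of 135 (11.1%). At 5' ends the sides were even, with 204 centres (16.1%) 0 to 10 kb downstream and 200 (15.8%) upstream. Among new CTCF peaks the shares at 3' ends were 12.5% downstream and 9.29% upstream.

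**Figure D1:**
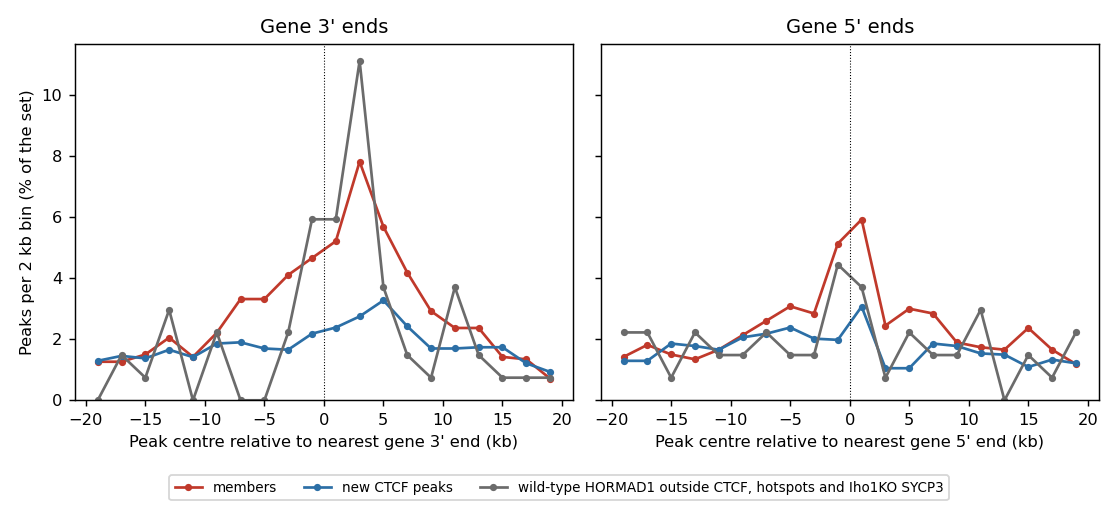
Share of each set's peak centres per 2 kb bin (y axis, percent) by distance in kb from the nearest gene 3' end (left) or 5' end (right), with positive values downstream, for the new non-CTCF sites (red, "members"), new CTCF peaks (blue) and the wild-type HORMAD1 set (grey, 135 peaks). The red line peaks at 7.81% in the bin 2 to 4 kb past the 3' end, while around 5' ends its 2 highest bins touch the end on either side.

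New non-CTCF sites were about as wide as new CTCF peaks at the median and wider in the upper tail. Their median width was 2456.5 bp (95% interval 2369 to 2624; range 515 to 22288), against 2350 bp (2287 to 2420) for new CTCF peaks and 1816 bp (1645 to 2186) for the wild-type set. Widths of at least 10 kb were found for 53 sites (4.05%) and for 46 new CTCF peaks (1.79%). All autosomal Mei4KO HORMAD1 peaks gave 3.99% and a median of 2594 bp. The other 1317 peaks of the list were wider than the sites, with 8.20% and a median of 3339 bp. A wide peak reaches more ends, and sites over or within 1 kb of a 3' end were broader, with a median of 4305 bp (3644 to 5091), against 2217 bp (2125 to 2321) for the 881 sites with no gene end within 1 kb. Of the 53 broadest, 35 lay at a 3' end and 10 at no gene end.

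**Figure D2:**
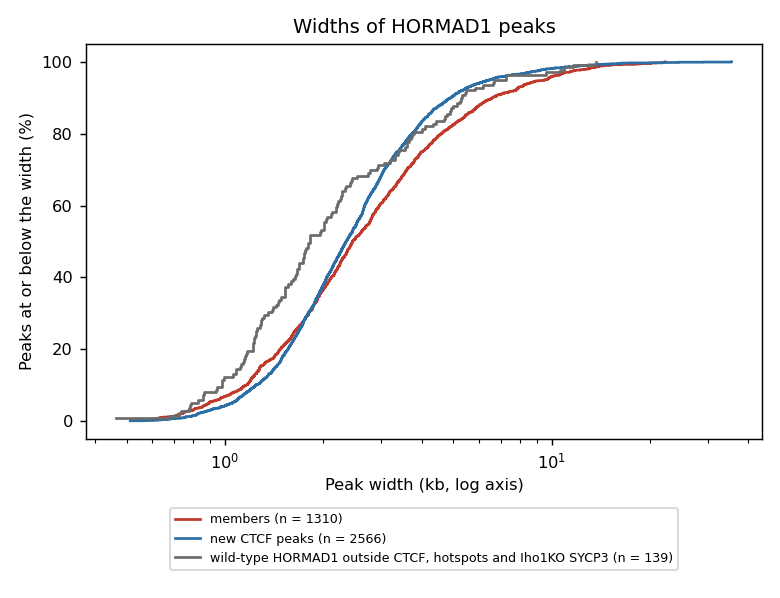
Cumulative share of peaks (y axis, percent) at or below each width (x axis, kb, log axis) for the new non-CTCF sites (red), new CTCF peaks (blue) and the wild-type HORMAD1 set (grey). The red and blue lines run together up to their medians of 2456.5 and 2350 bp, and the red line lies below the blue one at larger widths.

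Over whole peaks, the share at 3' ends was higher in the wider of 4 equal classes of width, while the share at 5' ends stayed within a narrow range. From the narrowest to the widest class, 6.67%, 7.94%, 19.6% and 35.6% of sites lay within 1 kb of a 3' end, while 12.7%, 10.2%, 13.6% and 14.4% lay within 1 kb of a 5' end. A wide peak covers more sequence, so the same classes were also measured with a 1 kb window at each centre, which gave 6.35%, 5.71%, 10.1% and 7.81% for 3' ends and 12.1%, 8.89%, 10.7% and 7.19% for 5' ends. The steep climb at 3' ends was not seen with this window. The share of centres 0 to 10 kb downstream of a 3' end, which does not depend on the span of the peak, was 17.8%, 17.8%, 24.9% and 42.5%, and that of centres 0 to 10 kb upstream was 12.7%, 18.1%, 19.9% and 19.7%. New CTCF peaks within the same width bounds gave 9.81%, 11.1%, 12.3% and 19.1% downstream. The widest class of the sites thus held more centres 0 to 10 kb past a 3' end than the widest new CTCF peaks, 42.5% (37.2 to 48.0) against 19.1% (15.6 to 23.1).

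The broadest sites lay at gene 3' ends, at gene 5' ends or past a gene. The widest, chr17:83479703-83501990 (22288 bp), covered the 3' ends of Eml4, a microtubule-associated protein, and Cox7a2l, a respiratory-chain assembly factor, which lie on opposite strands and end towards each other. It was in none of the 18 lists that the rule did not use. At chr14:64804075-64826037 (21963 bp) a site covered an end of the kinesin gene Kif13b and an end of the homeobox gene Hmbox1, and it met IHO1 and SYCP3 peaks of Mei4KO and a wild-type SYCP3 peak. At chr16:35110269-35131165 (20897 bp) a site began 1079 bp downstream of Hacd2, a fatty acid elongation enzyme, and was also in the Iho1KO HORMAD1 list. Other wide sites lay at gene starts: chr8:122842310-122862393 (20084 bp) over the 5' end of Cdh15, chr9:108585128-108602905 (17778 bp) over that of P4htm, and chr3:94475522-94491920 (16399 bp) over that of the RNA-binding protein gene Celf3. The site chr2:180176502-180196552 (20051 bp) lay inside the laminin gene Lama5, within 1 kb of its 3' end. The site chr3:95040887-95059721 (18835 bp) spanned from the 5' end of the proteasome gene Psmd4 to the 3' end of the lipid kinase gene Pip5k1a.

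The sites lay close to CTCF peaks, although the rule keeps them from touching one. The median distance from edge to edge was 12202 bp (11208 to 13529), with 44.1% (41.5 to 46.8) within 10 kb and 88.7% (86.9 to 90.3) within 50 kb. Wild-type HORMAD1 peaks that were not at CTCF lay farther away, with a median of 22418 bp (20301 to 24461), 28.6% (25.9 to 31.5) within 10 kb and 70.8% within 50 kb. These include peaks at hotspots and at Iho1KO SYCP3, which the rule removed from the sites. The 139 wild-type peaks outside those lists too gave 21901 bp (15928 to 33898) and 26.6% within 10 kb. Wild-type hotspots not at CTCF gave 26423 bp (25508 to 27291) and 25.8% within 10 kb. HORMAD1 peaks not at CTCF in the other knockouts had medians of 11857 bp in Iho1KO, 15761 bp in Prdm9KO and 16182 bp in Spo11KO, and the other Mei4KO peaks not at CTCF had 12685.5 bp. From centre to centre, wild-type HORMAD1 peaks not at CTCF again lay farther away than the sites, at 25032 against 15508 bp. The intervals of Iho1KO (10904 to 12752), Prdm9KO (12351 to 20069) and the rest of Mei4KO (11095 to 14381) overlap that of the sites. Those of Spo11KO (14743 to 17426) and of the wild-type sets lie above that of the sites.

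**Figure D3:**
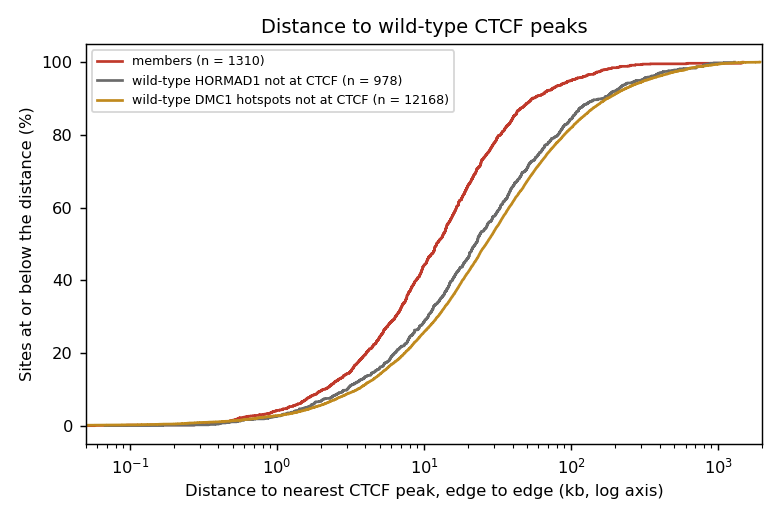
Cumulative share of peaks (y axis, percent) by edge-to-edge distance to the nearest wild-type CTCF peak (x axis, kb, log axis) for the new non-CTCF sites (red) and for wild-type HORMAD1 peaks (grey) and wild-type hotspots (yellow) that do not touch CTCF. The sites reach 44.1% at 10 kb, where wild-type HORMAD1 peaks reach 28.6% and wild-type hotspots 25.8%.

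The CTCF peaks next to the sites had an ordinary deposited score, in units the authors did not name. The nearest CTCF peak had a median score of 1.92, the same as all autosomal CTCF peaks (1.92), while the CTCF peaks under new CTCF peaks had a median of 3.28. Just inside the rule's limit, 20 sites lay within 500 bp of a CTCF peak, the nearest at 52 bp. Just outside it, 3 new CTCF peaks shared 100 bp or less with CTCF, the least being 19 bp, whereas the median shared length was 1801.5 bp. Few sites were near the other excluded lists: 12 (0.916%) lay within 1 kb of wild-type HORMAD1, 12 within 1 kb of wild-type IHO1, 22 (1.68%) within 1 kb of a hotspot and 30 (2.29%) within 1 kb of Iho1KO SYCP3.

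The 5 sites nearest to CTCF were all at or inside genes. They lay 52 bp from CTCF at the 5' end of Madcam1 (chr10:79660913-79665579), 58 bp away over Pfn3 and the 3' end of the kidney phosphate transporter gene Slc34a1 (chr13:55414268-55415906), 95 bp away at the 3' end of the polarity gene Pard6b (chr2:168100499-168105318), 138 bp away at the 3' end of Rin3 (chr12:102385361-102391118) and 279 bp away inside the chaperonin gene Cct2 (chr10:117062812-117063777). At the far end, a site at chr12:20226271-20227164 lay 617530 bp from CTCF and touched no gene. Sites more than 50 kb from CTCF were less often at gene ends. The share at 3' ends was 15.3% up to 5 kb from CTCF, 17.7% at 5 to 10 kb, 20.8% at 10 to 50 kb and 9.15% (5.43 to 15.0) beyond 50 kb. At 5' ends it was 13.6%, 12.9%, 13.9% and 5.63% (2.88 to 10.7). The farthest class was also the narrowest, with a median width of 1802 bp against 2784.5 bp up to 5 kb from CTCF.

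**Figure D4:**
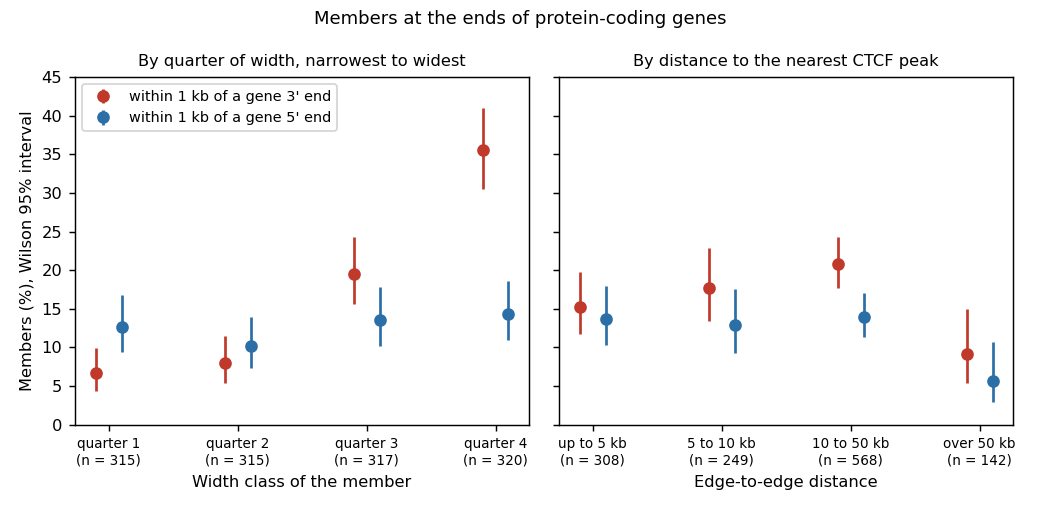
Share of the new non-CTCF sites within 1 kb of a gene 3' end (red) or 5' end (blue) (y axis, percent, with Wilson 95% intervals) by 4 equal classes of width, narrowest first (left) and by edge-to-edge distance to CTCF (right). Measured over whole peaks, the red points climb from 6.67% to 35.6% with width while the blue points stay between 10.2% and 14.4%, and both are lowest beyond 50 kb from CTCF.

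Most sites were in no other knockout's HORMAD1 list, and those that were came chiefly from Iho1KO. All HORMAD1 lists had the same Hormad1KO control subtracted, so their counts are given side by side. The Iho1KO list met 201 sites, 15.3% (13.5 to 17.4), against a background of 33.3% of all Mei4KO HORMAD1 peaks and 29.8% of new CTCF peaks. In Spo11KO 113 sites were met, 8.63% (7.22 to 10.3), against a background of 25.1% and 18.5% of new CTCF peaks. In Prdm9KO 31 sites were met, 2.37% (1.67 to 3.34), against a background of 10% and 3.39% of new CTCF peaks. The sites were thus met less often than new CTCF peaks by 14.5 points in Iho1KO (a difference of -14.5, interval -17.1 to -11.8) and by 9.89 points in Spo11KO (-9.89, -12.0 to -7.69), while the difference in Prdm9KO, -1.02 points (-2.06 to 0.137), was not called. The 3 lists differ in length, with 3149 peaks in Iho1KO, 2897 in Spo11KO and 1009 in Prdm9KO, and longer lists can meet more sites. The background also includes the 1317 peaks at wild-type HORMAD1, IHO1, hotspots or Iho1KO SYCP3, which the rule removed from both sets. Of those, 69.9% were in at least 1 of the 3 lists, so a share below the background follows in part from the rule.

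Taking the 3 lists at once, 246 sites (18.8%, 16.8 to 21.0; background 39.7%) were in at least 1 of them and 1064 in none. In Iho1KO only were 124, in Spo11KO only 35 and in Prdm9KO only 4. Iho1KO and Spo11KO together, without Prdm9KO, held 56, and all 3 lists held 16. The 246 sites found again were wider, with a median of 2826.5 bp (2613 to 3060), than the 1064 that were not, at 2369 bp (2262 to 2502). Their share at 3' ends was 20.3% (15.7 to 25.9), and that of the others was 16.9% (14.7 to 19.3), with intervals that overlap.

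IHO1 was seldom found at the sites in the same mutant. The Mei4KO IHO1 list, of 1036 peaks, met 29 sites, 2.21% (1.55 to 3.16), against a background of 9.97%, and it met 2.61% of new CTCF peaks, which left a difference of -0.397 points (interval -1.36 to 0.698), not called. IHO1 of Spo11KO met 17 sites (1.30%; background 7.2%), IHO1 of Prdm9KO met 4 (background 2.87%) and IHO1 of Hormad1KO met 1 (background 0.963%). The rule removed sites at wild-type IHO1 peaks, which bears on each of these shares, and on the background too, because the background includes peaks at wild-type IHO1. The 29 sites with IHO1 were broad, with a median of 5856 bp. Of them 19 (65.5%, 47.3 to 80.1) lay at a gene end, 12 (41.4%, 25.5 to 59.3) at a 3' end and 2 at a 5' end. In the widest of the 4 width classes of all sites, with a median of 5918.5 bp, 52.1% lay at a gene end and 35.6% at a 3' end. Those shares fall inside the intervals of the 29, so a part played by IHO1 apart from width was not tested. In another knockout's HORMAD1 list were 20 of the 29 (69.0%), against 18.8% of all sites.

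Most named examples of these sites lay at or near gene ends. After the Hmbox1 and Kif13b site, the widest were chr14:32580591-32594183 (13593 bp) at the 3' end of Ercc6, a transcription-coupled repair gene, and chr19:29701551-29714745 (13195 bp) at the 3' end of 9930021J03Rik and an end of the melanosome gene Mlana. The site chr8:107055764-107067139 (11376 bp) covered the genes Nip7 and Tmed6 and the 5' end of Cog8, a Golgi complex subunit. The site chr14:72526509-72537479 (10971 bp) stopped 469 bp short of Fndc3a. Sites at the 3' ends of Gldc, the glycine decarboxylase (chr19:30094364-30103224), Edem3 (chr1:151822317-151830459) and Ano7 (chr1:93397128-93404743) were 8861, 8143 and 7616 bp wide, and 1 of 7795 bp began 2055 bp downstream of the tubulin cofactor gene Tbca (chr13:94844978-94852772).

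SYCP3 was rare at the sites but less rare than at new CTCF peaks in 3 of 5 lists. The Spo11KO list met 29 sites, 2.21% (background 7.47%), against 0.546% of new CTCF peaks, a difference of 1.67 points (0.905 to 2.64). The Mei4KO list met 16, 1.22% (background 5.62%), against 0.312%, a difference of 0.910 (0.352 to 1.68). The Prdm9KO list met 7, 0.534% (background 3.22%), against 3 new CTCF peaks (0.117%), a difference of 0.417 (0.0611 to 0.987). The Spo11KO and Prdm9KO lists came from 1 sample each, and the Mei4KO difference was not called in the middle 50% of widths. Wild-type SYCP3 met 16 sites (background 6.99%) and Hormad1KO met 6 (background 6.1%), with differences of 0.325 (-0.321 to 1.14) and -0.516 (-1.04 to 0.106), neither of them called. The rule removed Iho1KO SYCP3 peaks from both sets, while the background includes them. Of the 41 sites at SYCP3 of Spo11KO or Mei4KO (median width 4194 bp), 19 (46.3%, 32.1 to 61.3) lay at a 3' end and 16 (39.0%, 25.7 to 54.3) at a 5' end. In the widest width class of all sites these shares were 35.6% and 14.4%.

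MEI4 and DMC1 lists met few of the sites. The MEI4 lists met 1 site in the wild type (background 0.886%), 1 in Prdm9KO (0.212%), and 2 each in Spo11KO (1.52%), Iho1KO (0.924%) and Hormad1KO (1.21%), which made 6 different sites. DMC1 of Hormad1KO met 1 site (background 1.41%). Both counts are of sites from which wild-type hotspots had been removed, while the background includes peaks at hotspots.

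**Figure D5:**
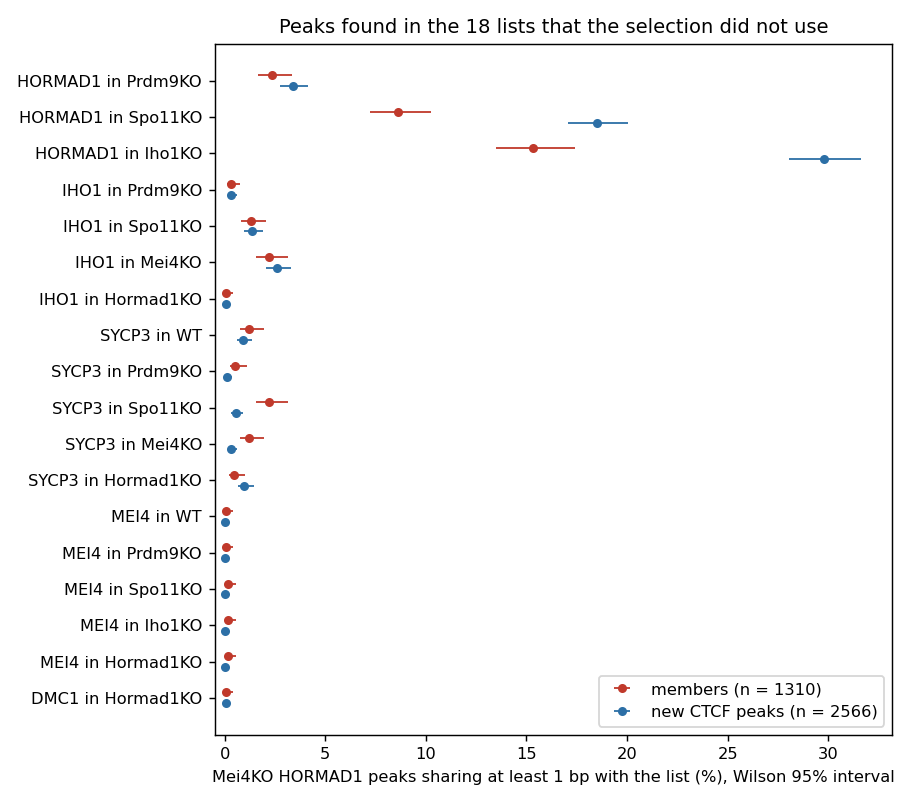
Share of the new non-CTCF sites (red) and of the new CTCF peaks (blue) (x axis, percent, with Wilson 95% intervals) that shared a base with each of the 18 lists not used by the rule. The HORMAD1 lists of Iho1KO and Spo11KO stand highest, at 15.3% and 8.63% of the sites and 29.8% and 18.5% of the new CTCF peaks.

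Counted over all 18 lists, 1020 sites (77.9%) were in none, 172 in 1, 73 in 2, 28 in 3 and 13 in 4. In at least 1 list were 290 sites (22.1%, 19.97 to 24.5; background 44.5%), against 36.3% of new CTCF peaks. The background includes the 1317 peaks that the rule removed from both sets, of which 82.7% were in at least 1 list. The site in most lists, 8 of the 18, was chr8:34813437-34822349 at an end of Dusp4, a MAP kinase phosphatase gene, which met HORMAD1 of Iho1KO, IHO1 of Spo11KO and Hormad1KO, wild-type and Hormad1KO SYCP3, and 3 MEI4 lists. The site chr8:111145661-111155470 at the 3' end of the Golgi glycoprotein gene Glg1 was in 7 lists. In 5 lists were chr6:115491736-115497270, which began 1332 bp downstream of Pparg, a nuclear receptor gene of fat cells, and chr11:95519876-95522393, which lay 5311 bp from Nxph3.

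The sites in 4 lists that the naming rule reached lay in several kinds of place. They lay 200 bp downstream of Etfa, an electron transfer flavoprotein gene (chr9:55442623-55454236), 103 bp downstream of the translation factor gene Eif3c (chr7:126540953-126546808), at the 3' end of Pde6d (chr1:86531156-86544777), over Rusc1 and an end of Fdps (chr3:89079384-89094302), inside Tor3a (chr1:156664885-156670354) and 2738 bp upstream of 9230019H11Rik (chr10:3111368-3117103). Of the 10 sites in most lists, 7 had a nearest gene of stated strand: those at Glg1, Pparg, Etfa, Pde6d and Eif3c lay at or past a 3' end, that at Rusc1 covered both ends, and that at 9230019H11Rik lay upstream. They were ranked by lists that share control libraries, and the ranking is a description.

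By gene group, no site was found at the listed meiosis, piRNA or olfactory receptor genes. A site lay on or within 1 kb of 833 of 20665 autosomal protein-coding genes (4.03%). Of 47 meiosis genes 0 had one, which allows a share of up to 6.38%, and of 22 germline RNA and piRNA genes 0 had one (up to 13.6%). The limits of both groups lie above the 4.03% of all genes, so neither group can be told apart from them. Of 1104 olfactory receptor genes 0 had one (up to 0.272%). New CTCF peaks were almost as rare there, at 1 of 1104, and lay at 2 of 47 meiosis and 0 of 22 germline RNA and piRNA genes. Cohesin and loop factors had 1 of 21, Pds5a, a cohesin regulator, with a site of 3301 bp inside the gene. Ribosomal protein genes had 3 of 91, Rpl8, Rps21 and Rpl28. The histone list had 4 of 75, namely H3c1 and H1f1 at a shared site, H2ac18, and H2az2, which is a variant gene that the list's symbol prefix took in.

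Developmental Hox genes had the largest share of these groups, 6 of 39 (15.4%, 7.25 to 29.7), with 2 of 39 for new CTCF peaks. They were Hoxa9, Hoxc9, Hoxc10, Hoxc13, Hoxd10 and Hoxd11, all patterning factors in clusters, so that neighbours are not independent, and 1 site was shared by Hoxd10 and Hoxd11. Their sites were 1693 to 3926 bp wide and in none of the 18 lists, as were 77.9% of all sites. Zinc finger genes had 9 of 408 (2.21%), the same number as for new CTCF peaks. These included Zfp950, which held 8 sites, and Zfp978, which held 2.

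Most sites had no other site of the set close by. No other site lay within 10 kb for 1084 of them (82.7%), 86 runs held 2 sites and 12 held 3. Mei4KO HORMAD1 peaks outside the set also lay near some of them, within 10 kb of 234 sites (17.9%) and within 1 kb of 82 (6.26%). No expected spacing was computed, so clustering was not tested. The 3 longest runs held 7, 6 and 5. The run of 7 lay within Zfp950 and its overlapping pseudogene Gm4238 (chr19:61117022-61137672), with sites of 686 to 2444 bp. The run of 6 (chr1:195312523-195346325) lay in no annotated gene, and the run of 5 (chr5:151695068-151715133) touched the small nuclear RNA gene Gm24242. Of the 18 sites in these runs, 0 were in any of the 18 other lists, and 77.9% of all sites were in none of them either.

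Across chromosomes the sites made up 18.5% (chromosome 7) to 36.2% (chromosome 19, 68 of 188) of the list's peaks. Per 100 protein-coding genes they numbered from 2.86 on chromosome 7 to 9.65 on chromosome 19. New CTCF peaks were also fewest per 100 genes on chromosome 7, at 8.57, and numbered 9.22 on chromosome 19. Of the 68 sites on chromosome 19, 7 were the Zfp950 run.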

How the data were processed

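Peak lists of mouse testis ChIP-seq were used as the authors deposited them. Each gives positions per peak. The CTCF list adds a deposited score and the DMC1 lists a deposited signal value, in units the authors did not name. The submitters' processing notes name Bowtie2, MACS2 and mm10 without versions or roles, and they do not say if the 2 samples of a group were pooled. Per the series' design text, each protein's own knockout had been subtracted. The series holds no Ctcf or Dmc1 knockout sample, so the control behind the CTCF and DMC1 lists is not known.

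From these, overlaps (at least 1 bp), edge-to-edge distances, widths and gene context were computed in Python 3.11.15 with numpy 2.4.6 and pandas 2.3.3, tested on simulated data. Genes and promoters came from RefSeq tables of GRCm38.p6. Strand was taken from the promoter table. No p-value was computed, since each group has 1 list and peaks are not replicates. Members, gene lists and tests were chosen with earlier results of these data known. Named sites are the 10 widest, the 10 in most lists, the 5 nearest to and farthest from CTCF, and the 10 widest with IHO1 in Mei4KO. Of these, 1 of the widest and 4 of the farthest lie on chromosome 18 and are counted but not named, and 2 other sites that the rule reached are not reported here. Alternatives were stricter overlap, centre windows, wider or middle widths, other margins and, chosen after seeing the data, the wild-type comparison set and all results split by 3' and 5' ends.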

Additional observations from a re-analysis of the deposited data

How the results depend on the processing

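No paired analysis was possible because each group has 1 list and the lists carry no replicate. Of 51 alternatives, 43 kept the direction, the call and, for counts and medians, the size (differences could still change in size, as below), among them every alternative for HORMAD1 in Spo11KO and Iho1KO. The median distance to CTCF moved from 12202 bp to 24495.5 bp with the upper 50% of CTCF peaks by score and to 15508 bp from centre to centre. IHO1 in Mei4KO changed sign, from -0.397 to 0.393 points, in the wider 50% of each set, and was called in neither. With 1 kb centre windows the difference at gene ends fell from 18.6 to 10.9 points and that at 3' ends from 10.4 to 4.35, and with no margin they were 12.1 and 6.46. In the wider 50% the 3' difference was 17.4, and gene starts alone gave 7.32; all stayed called. HORMAD1 in Prdm9KO became called with 1 kb centre windows (-1.09 points). SYCP3 in Mei4KO lost its call in the middle 50% of widths (0.603 points). With wild-type HORMAD1 peaks outside CTCF as the comparison, chosen after seeing the data, the differences were 5.41 points at gene ends, 3.82 at 5' ends and -0.997 at 3' ends, and none was called. For these changes the cause was not tested, though the wild-type set is small (139 peaks). Depth is unknown for every list, so a peak missing from a list may have fallen under its threshold.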
